A study of Homo sapiens with 6 samples.

Results

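The genes described here are 37 genes of the short arm of chromosome 8, in bands 8p23 to 8p22, taken in map order with MCPH1 at the telomeric end and NAT2 at the centromeric end. MTUS1, a gene for a microtubule-associated protein, lies among them. Of the 37 genes, 35 had at least 1 probe set naming that gene alone and the other 2, MCPH1 and FDFT1, were not analysed here. These 35 genes had 105 such probe sets, and each gene was read from its probe set with the highest mean signal. For 23 genes that probe set reached the signal needed for the fit over 11835 genes in all, and for 12 it did not. The genes were chosen with the difference between the groups already known, so their own values are given as a description and no p-value is given for any of them.

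The cells were HT29, a line of human colon adenocarcinoma. The study compared HT29 cells resistant to 10 μM methotrexate (MTX), an antifolate drug, with HT29 cells sensitive to it, to find genes that take part in the resistance. There were 3 samples of resistant cells and 3 of sensitive cells, each hybridized to 1 HG U133 PLUS 2.0 array. Resistant cells had been selected earlier by rising doses of MTX and were kept in medium lacking glycine, hypoxanthine and thymidine with dialyzed serum, whereas sensitive cells were kept in Ham's F12 with whole serum, so resistance and medium cannot be told apart. The sources used here do not state whether the resistant cells are 1 clone. No source states that the 3 samples of a group were separate cultures, so p-values measure no more than the spread of these samples, and that spread may be technical.

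The short arm of chromosome 8 is often lost in colorectal carcinoma and in other epithelial tumours. DLC1, TUSC3 and MTUS1 have each been described as candidate tumour suppressors of this arm. A protein that works in a complex, such as a deadenylase or a subunit of the endosomal sorting machinery, needs partners that are encoded on other chromosomes, and those partners are described after the 8p genes.

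Signals are MAS5 intensities divided by the median of their own array, and 1 on this scale stands for the array median. The medians were 13.3, 16.0 and 16.9 on the resistant arrays, against 14.2, 15 and 15.4 on the sensitive ones. The log2 signals of the tested probe sets correlated at 0.966 to 0.969 within the resistant arrays, at 0.969 to 0.975 within the sensitive arrays and at 0.914 to 0.924 between the groups. The ratio of 3' to 5' signal for ACTB was 1.25 ± 0.0698 in resistant and 1.14 ± 0.0220 in sensitive samples (SD, n = 3 each), and for GAPDH it was 1.02 ± 0.0338 and 1.01 ± 0.00540 in resistant and sensitive samples. Of 12 colon epithelial markers, 8 were above the array median on all 6 arrays, and the defining markers CDX1 and CDX2 were under it on all 6. The summed signal of the 12 markers was 1598 to 1798 on the resistant arrays, against 2062 to 2274 on the sensitive arrays. Of 16 markers of other cell types on the array, 8 were under the median on all 6 arrays, PTPRC and CDH5 among them, and their sum was 22.5 to 26.6 on the resistant arrays, against 9.78 to 12.9 on the sensitive arrays. COL1A1, a collagen chain of fibroblasts, held most of that difference, with mean scaled signals of 11.8 in resistant and 0.740 in sensitive samples. COL1A2 had means of 0.513 in resistant and 0.746 in sensitive samples, COL3A1 0.598 and 0.520, and PDGFRB 0.377 and 0.514. All of these were under the array median in both means and overlapped between the groups. ACTA2 had means of 3.21 in resistant and 1.62 in sensitive samples, and CD14 had 0.463 and 2.41. The part of the RNA ratios and of these markers in the results below was not tested, and in bulk samples a change in the kinds of cells and in RNA per cell cannot be told apart.

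All 23 tested genes of the stretch had a mean log2 signal that was higher in resistant cells. In the limma fit over all probe sets, 19 of them were past an adjusted p of 0.05 and higher, 0 were lower, and ERI1, SOX7, NEIL2 and VPS37A did not pass. Over all tested genes 11.9% were higher by the same rule and 21.4% were lower, and since the genes were chosen on this contrast nothing is read from the difference between 82.6% and 11.9%. No tested gene of the stretch was lower at an unadjusted p under 0.05 either. The median log2 fold change was 1.12, against −0.10 for all tested genes, with quartiles of 0.78 and 1.39 and a range of 0.13 to 2.89. ZDHHC2, FGL1, MTUS1, XKR6 and MSRA were called with a change of at least 3-fold on the log2 scale, a rule met in the upward direction by 1.91% of all tested genes. The arithmetic means of XKR6 stood 2.71-fold apart, and its sensitive mean of 0.717 was under the array median.

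For 19 genes every resistant array lay above every sensitive array, against 16.8% of all tested genes. These 19 were not exactly the 19 that passed the limma threshold. The arrays of SOX7 did not overlap between the groups but the gene did not pass, whereas CNOT7 passed although 1 resistant array lay below the highest sensitive one. Expressed as the deviation from the sensitive mean on the log2 scale, the median over the 23 genes was 1.30, 1.03 and 0.91 on the resistant arrays, against 0.10, 0.01 and −0.07 on the sensitive arrays. The first resistant array therefore stood highest, and without it the median log2 fold change of the 23 genes was 0.93.

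**Figure D1:**
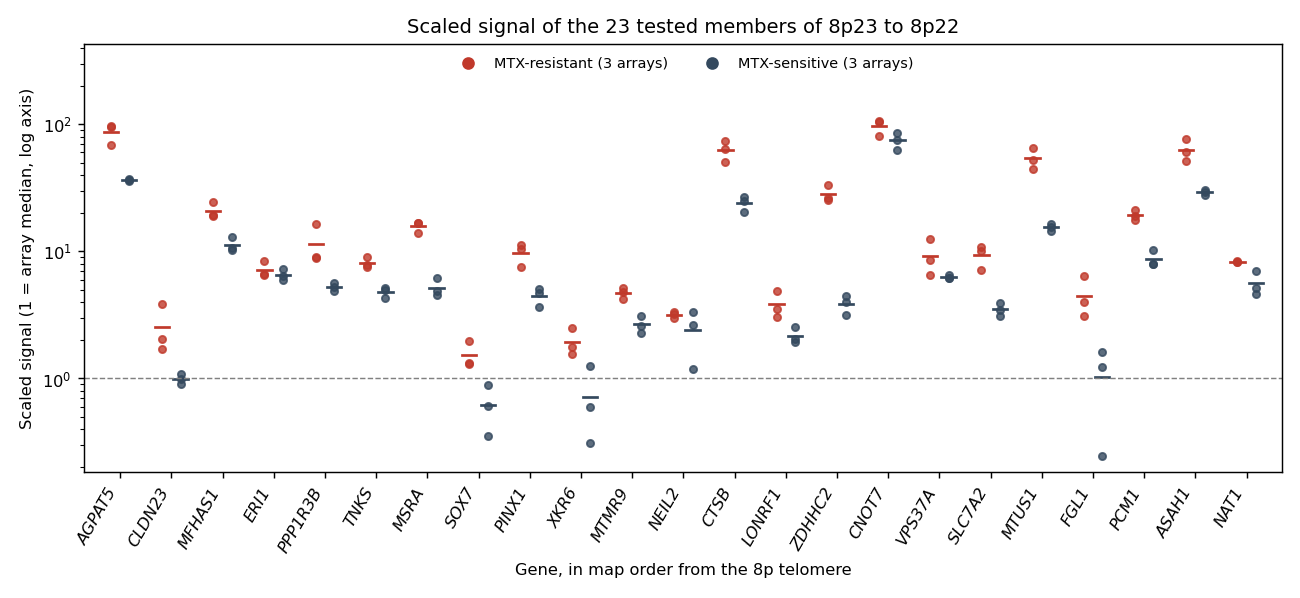
Scaled signal of the 23 tested 8p genes on each array, on a log axis where 1 is the array median, with the 3 MTX-resistant arrays left and the 3 MTX-sensitive arrays right of each gene name and short lines at the arithmetic means. The 3 resistant points lie above the 3 sensitive points for 19 genes, most widely for ZDHHC2 with 25.6 to 33.2 in resistant and 3.15 to 4.43 in sensitive samples.

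MTUS1 encodes a protein that binds microtubules and interacts with the angiotensin II type 2 receptor. Its scaled signal was 64.6, 44.3 and 52.5 in the resistant samples, against 14.5, 15.4 and 16.4 in the sensitive samples. The lowest resistant array was thus above every sensitive array, and the group means were 53.8 ± 10.2 and 15.4 ± 0.928 in resistant and sensitive samples (SD, n = 3 each). The log2 fold change was 1.79 with a standard error of 0.16. The other 3 probe sets of MTUS1 had log2 fold changes of 1.57, 1.74 and 1.10, all in the same direction.

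ZDHHC2, an enzyme that attaches palmitate to cysteines of membrane proteins, had the widest difference among the tested genes of the stretch. Its scaled signal was 33.2, 26.5 and 25.6 in the resistant samples, against 3.99, 3.15 and 4.43 in the sensitive samples. The log2 fold change was 2.89 with a standard error of 0.18, and the means stood 7.37-fold apart. A further probe set gave a log2 fold change of 2.01. Another gave 4.76, but its sensitive signals of 0.106, 0.0867 and 0.162 lay far below the array median, where MAS5 gives no firm level, so the size of that value is uncertain.

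PCM1 encodes the scaffold of centriolar satellites, the granules that carry proteins to the centrosome. It had scaled signals of 21.2, 17.7 and 18.9 in resistant samples, against 7.92, 7.91 and 10.2 in sensitive samples. The arrays did not overlap and the log2 fold change was 1.16 (standard error 0.17). Another 4 tested probe sets of PCM1 had log2 fold changes of 0.63 to 1.08, of which 3 passed the threshold.

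Several genes of the stretch act in lysosomes or on membrane lipids. CTSB encodes cathepsin B, a cysteine protease of the lysosome. Its scaled signal was 73.4, 63.95 and 50.4 in resistant samples, against 26.8, 24.8 and 20.5 in sensitive samples, a log2 fold change of 1.37 (standard error 0.16). All 5 of its probe sets were past the threshold, with log2 fold changes between 0.99 and 1.79. ASAH1 encodes acid ceramidase, which splits ceramide into sphingosine and a fatty acid. Its scaled signal was 77.0, 60.02 and 51.9 in resistant samples, against 30.3, 29.5 and 27.9 in sensitive samples. The log2 fold change of ASAH1 was 1.09 (standard error 0.15), and 3 more probe sets of it gave 0.71 to 1.14.

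AGPAT5, an acyltransferase that makes phosphatidic acid from lysophosphatidic acid, had scaled signals of 94.6, 68.3 and 96.3 in resistant samples, against 36.6, 37.2 and 35.6 in sensitive samples. The sensitive arrays lay close together and well below the resistant ones. The log2 fold change was 1.23 (standard error 0.14), and the other probe set gave 1.76. MTMR9, a myotubularin without phosphatase activity that binds active members of its family, had 4.25, 5.11 and 4.83 in resistant samples, against 2.28, 3.11 and 2.60 in sensitive samples. Of its 3 probe sets 2 passed, and the remaining one had a log2 fold change of 0.15.

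VPS37A, a subunit of the endosomal sorting complex ESCRT-I, was among the 4 genes that did not pass. Its scaled signal was 12.6, 6.50 and 8.60 in resistant samples, against 6.52, 6.14 and 6.16 in sensitive samples, so the second resistant array lay within the sensitive range. The other VPS37A probe set did not overlap between the groups, with 3.77, 3.16 and 2.92 in resistant and 2.07, 1.72 and 1.62 in sensitive samples. That probe set passed the threshold with a log2 fold change of 0.87, against 0.51 for the main one.

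Genes of RNA turnover and DNA maintenance come next. CNOT7, a catalytic deadenylase of the CCR4-NOT complex, had scaled signals of 105, 81.4 and 104 in resistant samples, against 85.4, 75.4 and 62.8 in sensitive samples. The second resistant array lay below the first sensitive array, and the log2 fold change was 0.38 (standard error 0.14). Its other 3 tested probe sets did not overlap between the groups and gave 0.58, 1.02 and 0.86, the last one not past the threshold. ERI1, an exoribonuclease that trims histone mRNA ends and 5.8S ribosomal RNA, had 6.52, 6.59 and 8.37 in resistant and 6.39, 7.23 and 5.95 in sensitive samples. Both its probe sets overlapped between the groups, and its log2 fold changes of 0.13 and 0.01 were the smallest among the genes tested.

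TNKS encodes tankyrase, a poly(ADP-ribose) polymerase first found at telomeres. It had 7.87, 7.60 and 9.02 in resistant samples, against 5.15, 4.33 and 4.94 in sensitive samples, with a log2 fold change of 0.76 (standard error 0.18). PINX1, which binds the telomere protein TRF1 and inhibits telomerase, had 10.5, 7.48 and 11.3 in resistant samples, against 4.72, 5.09 and 3.64 in sensitive samples. The arrays of both telomere genes did not overlap between the groups, and the log2 fold change of PINX1 was 1.12 (standard error 0.20). NEIL2, a DNA glycosylase for oxidized bases, had 3.34, 3.21 and 2.98 in resistant samples, against 2.64, 3.35 and 1.19 in sensitive samples. Its second sensitive array was above all 3 resistant arrays and the gene did not pass.

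The genes for metabolic enzymes ranged widely. MSRA, which reduces oxidized methionine in proteins, had scaled signals of 16.9, 13.9 and 16.6 in resistant samples, against 6.12, 4.51 and 4.92 in sensitive samples. Its log2 fold change was 1.62 (standard error 0.18), and its means stood 3.05-fold apart. PPP1R3B, which brings protein phosphatase 1 to glycogen, had 16.3, 8.99 and 8.92 in resistant samples, against 5.63, 5.27 and 4.86 in sensitive samples. Its first resistant array stood apart from the other two, and its log2 fold change was 1.06 (standard error 0.21). The other tested probe set of PPP1R3B gave 0.58 and did not pass, although its groups did not overlap. NAT1, an arylamine N-acetyltransferase, had 8.21, 8.29 and 8.35 in resistant samples, against 6.98, 4.62 and 5.18 in sensitive samples. The resistant arrays of NAT1 lay close together, and its log2 fold change was 0.59 (standard error 0.19).

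Genes for proteins of the cell surface and for secreted proteins included some of the widest differences at low signal. SLC7A2, a transporter of arginine and other cationic amino acids, had 10.1, 7.09 and 10.7 in resistant samples, against 3.90, 3.49 and 3.10 in sensitive samples, a log2 fold change of 1.39 (standard error 0.20). FGL1, a secreted fibrinogen-like protein best known from liver, had 6.38, 3.08 and 3.99 in resistant samples, against 1.23, 1.63 and 0.247 in sensitive samples. The groups of FGL1 did not overlap, but its log2 fold change of 2.44 had a standard error of 0.48, and its lowest sensitive array lay far under the array median. CLDN23, a claudin of tight junctions, had 3.88, 2.06 and 1.69 in resistant samples, against 0.901, 1.09 and 0.987 in sensitive samples. XKR6, a membrane protein of the XK family, had 2.50, 1.56 and 1.78 in resistant samples, against 0.592, 0.313 and 1.25 in sensitive samples.

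The remaining tested genes encode factors of transcription and signalling. MFHAS1, a leucine-rich repeat protein, had 24.4, 19.3 and 19.0 in resistant samples, against 12.9, 10.2 and 10.6 in sensitive samples, and both its probe sets passed with log2 fold changes of 0.89 and 0.63. LONRF1, a RING finger protein, had 3.54, 4.88 and 3.05 in resistant samples, against 2.54, 2.05 and 1.92 in sensitive samples. SOX7, a transcription factor of endoderm and endothelium, had 1.33, 1.30 and 1.96 in resistant samples, against 0.887, 0.607 and 0.351 in sensitive samples. SOX7, XKR6 and CLDN23 had sensitive means under the array median and entered the fit through their resistant arrays, so for these 3 genes a difference was built into the filter. Among the 20 tested genes at or above the array median in both group means, 17 were higher, 3 did not pass and the median log2 fold change was 1.07.

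For 5 of the 19 genes higher in resistant cells the call rested on single arrays. CLDN23 was no longer past the threshold without resistant replicate 1, at a log2 fold change of 0.91. XKR6 was not past it without resistant replicate 1 (1.44), resistant replicate 2 (1.78) or sensitive replicate 2 (1.15), and LONRF1 was not past it without resistant replicate 2 (0.61) or sensitive replicate 3 (0.72). NAT1 was not past it without resistant replicate 2 (0.59), sensitive replicate 2 (0.46) or sensitive replicate 3 (0.54). CNOT7 was not past it without resistant replicate 1 (0.32), resistant replicate 3 (0.32), sensitive replicate 2 (0.39) or sensitive replicate 3 (0.26). All of these log2 fold changes stayed above 0.

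The 12 genes under the filter are mostly known from other tissues or cell types, and 8 of them were under the array median on all 6 arrays. The candidate tumour suppressor DLC1, a GTPase-activating protein, had scaled signals of 1.63, 0.263 and 0.692 in resistant samples, against 0.408, 0.380 and 0.325 in sensitive samples. TUSC3, a subunit of the oligosaccharyltransferase of the endoplasmic reticulum, had 0.632, 0.444 and 0.497 in resistant samples, against 0.577, 0.567 and 0.0195 in sensitive samples. By their main probe sets both genes overlapped between the groups, and neither had a signal high enough to be compared. Another DLC1 probe set, also under the array median on all arrays, did not overlap. It had 0.263, 0.888 and 0.592 in resistant samples, against 0.113, 0.213 and 0.0455 in sensitive samples. The transcription factor GATA4 had 0.947, 1.04 and 1.88 in resistant samples, against 0.127, 1.24 and 0.448 in sensitive samples. Another GATA4 probe set, also under the filter, was lower in resistant samples without overlap. It had 0.218, 0.275 and 0.361 in resistant samples, against 0.542, 1.43 and 1.38 in sensitive samples. The defensin DEFB1 had 1.38, 1.28 and 0.0592 in resistant samples, against 1.26, 0.153 and 1.16 in sensitive samples.

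The other dim genes were ANGPT2, a ligand of the endothelial receptor TIE2, BLK, a kinase of B cells, TRMT9B, listed by its older name KIAA1456 and related to tRNA methyltransferases, SGCZ, a sarcoglycan of muscle, MTMR7, a phosphoinositide phosphatase, PDGFRL, related to platelet-derived growth factor receptors, NAT2, the paralogue of NAT1, and MSR1, the macrophage scavenger receptor. MSR1 had 0.0902, 0.150 and 0.0355 in resistant samples, against 0.451, 0.560 and 1.48 in sensitive samples. By its main probe set it was the 1 gene of the stretch whose resistant arrays all lay below the sensitive ones, at signals mostly far under the array median. The resistant means of ANGPT2, TRMT9B, SGCZ and MTMR7 were also below their sensitive means, but with overlap between the groups. NAT2 had 0.211, 0.0625 and 0.0769 in resistant samples, against 0.127, 0.0533 and 0.0519 in sensitive samples. Over all 56 probe sets of the 8p genes under the filter, 6 were higher and 2 lower without overlap, where 6.53% and 6.20% of all such dim probe sets were higher and lower.

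**Figure D2:**
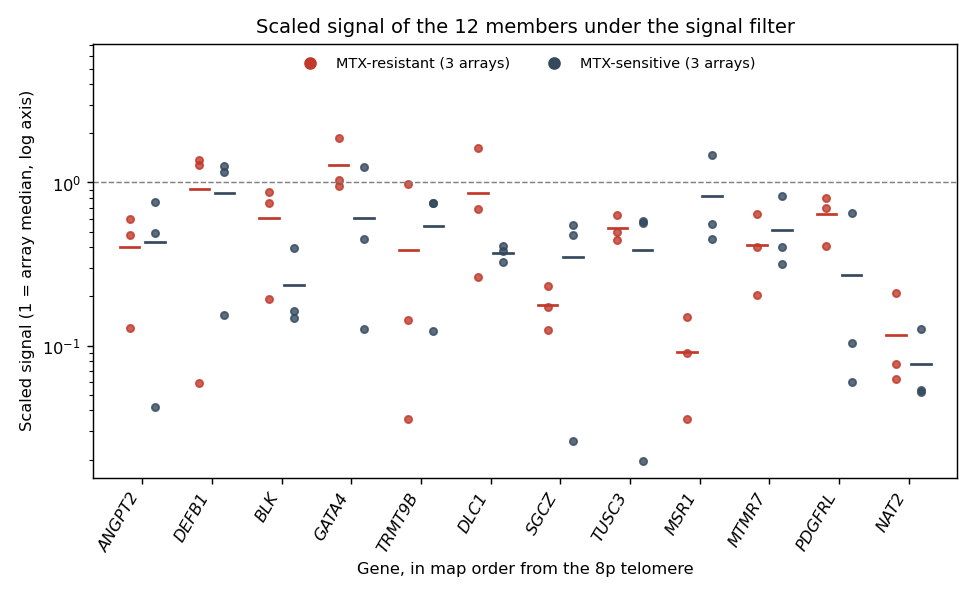
Scaled signal of the 12 genes of the stretch under the signal filter, on a log axis, with the 3 MTX-resistant arrays left and the 3 MTX-sensitive arrays right of each gene name, short lines at the means and a dashed line at the array median. The groups overlap for 11 genes, and MSR1 has 0.0355 to 0.150 in resistant and 0.451 to 1.48 in sensitive samples.

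Different probe sets of a gene read different parts of its transcripts, so their values bear on how far 1 probe set stands for the gene. Of the 49 tested probe sets of the 8p genes, 40 were higher and 0 lower by the limma test, against 9.52% higher and 19.5% lower among all tested probe sets, and their log2 fold changes ran from 0.01 to 4.76 with a median of 1.06. Some of the 49 had sensitive means under the array median and entered the fit through their resistant arrays. These were the ZDHHC2 probe set at 4.76 (sensitive mean 0.118), the CNOT7 probe set at 0.86 (sensitive mean 0.885) and the tested ones of CLDN23, XKR6 and SOX7. Of the 12 genes with 2 or more tested probe sets, AGPAT5, MFHAS1, CTSB, ZDHHC2, MTUS1 and ASAH1 had all of them past the threshold. The log2 fold changes of a gene lay within 0.5 of each other for 5 of the 12 genes, and they lay farthest apart for ZDHHC2. Probe sets of MTUS1, CTSB, PCM1, ASAH1, CNOT7, ZDHHC2 and PINX1 include some of the Affymetrix types that can also hybridize to related transcripts. The main probe sets of MTUS1, CTSB, PCM1 and ASAH1 and the only one of PINX1 are among them. Such values are less certain for that reason.

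**Figure D3:**
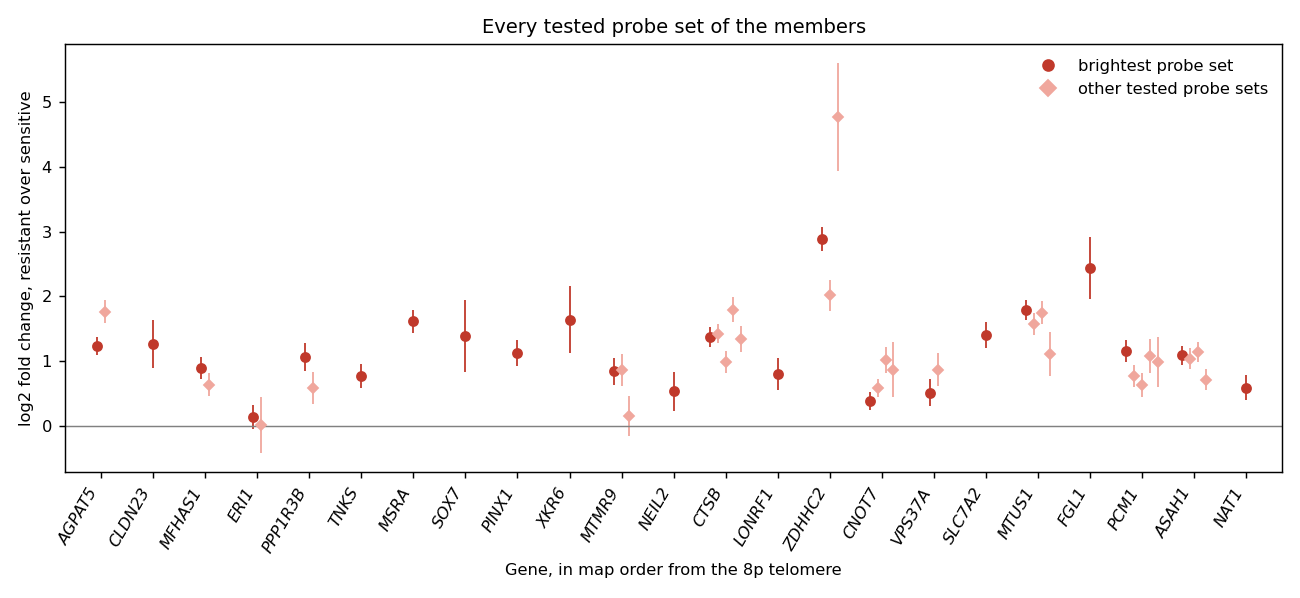
Log2 fold change, resistant over sensitive, of every tested probe set of the 8p genes, with standard errors from the limma fit as bars, darker circles for the probe set of highest mean signal and lighter diamonds for the others. All 49 values lie above 0, and the 3 of ZDHHC2 run from 2.01 to 4.76.

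Within the stretch the differences did not follow map order in a simple way. From the telomeric end to LONRF1, 14 genes were tested, 11 were higher and the median log2 fold change was 1.09. From ZDHHC2 to NAT2, 9 were tested, 8 were higher and the median was 1.16. Between these runs lie 5 genes, TRMT9B, DLC1, SGCZ, TUSC3 and MSR1, none of which reached the filter, so a large part of the stretch gave no measurement. Neighbours could differ widely, since ZDHHC2 at 2.89 lies next to CNOT7 at 0.38 and VPS37A at 0.51. Across the 23 genes the log2 fold change and the log2 mean level had a Spearman correlation of −0.05 and a Pearson correlation of −0.04, given as a description over genes that share the same 6 arrays.

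A further 7 tested genes lie between MCPH1 and NAT2 without belonging to the 37, and 2 of them were past the threshold. PRAG1, a pseudokinase, and the long noncoding RNA FAM86B2-DT were these 2, with log2 fold changes of 1.40 and 2.13 (limma, adjusted p = 1.34e-05 and 1.82e-07). PRAG1 had scaled signals of 53.6, 28.0 and 28.7 in resistant samples, against 12.4, 13.2 and 14.4 in sensitive samples. FAM86B2-DT had 10.8, 7.39 and 8.44 in resistant samples, against 2.20, 1.53 and 2.40 in sensitive samples. Both genes therefore showed no overlap between the groups, like most of the 8p genes around them. The 5 others, among them MCPH1-AS1 at 1.20 and C8orf74 at 0.09, did not pass. MCPH1-AS1, FAM86B3P and TDH-AS1 had sensitive means under the array median and entered the fit through their resistant arrays, and the 4 others had a median log2 fold change of 0.85.

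The higher signals did not end at the borders of the stretch. All 6 tested genes telomeric of MCPH1 were higher, with a median log2 fold change of 2.02 and a range of 1.45 to 2.77. The nearest 3 were CLN8-AS1 (2.77, adjusted p = 3.58e-07), KBTBD11 (2.08, adjusted p = 2.14e-08) and MCPH1-DT (1.51, adjusted p = 0.00347), all from limma. MCPH1-DT had a sensitive mean of 0.900 and entered the fit through its resistant arrays, and the 5 others were higher with a median of 2.06. On the centromeric side, PSD3, which activates the small GTPase ARF6, came first with a log2 fold change of 1.86 (limma, adjusted p = 3.89e-08). PSD3 had scaled signals of 18.3, 14.8 and 18.9 in resistant samples, against 4.32, 4.93 and 5.01 in sensitive samples. SH2D4A followed at 0.42 and did not pass, and INTS10, a subunit of the Integrator complex, was at 0.48 (limma, adjusted p = 0.0438). INTS10 was not past the threshold without any 1 of 5 of the 6 arrays, with an adjusted p of up to 0.117, and the mean of its tested probe sets had a log2 fold change of 0.08 (adjusted p = 0.832).

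From NAT2 to the centromere 105 genes were tested, of which 71 were higher, 1 was lower and 33 did not pass. Their median log2 fold change was 0.71, with quartiles of 0.48 and 0.95, against 1.12 for the 23 genes of the stretch and quartiles of 0.78 and 1.39, and the difference between these sets was not tested. Of the 97 genes at or above the array median in both groups, 69 were higher. The 1 lower gene was DPYSL2, a protein of axon growth, at −0.54 (limma, adjusted p = 0.0208). On the long arm the direction turned. Of 269 tested genes of 8q, 11 were higher, 152 were lower and 106 did not pass, with a median of −0.55.

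The change of direction fell at the centromere to within a few tested genes. The last genes of 8p were THAP1 at 0.41, RNF170 at 1.29, HOOK3 at 1.22, FNTA at 0.95 and HGSNAT at 1.81. The first genes of 8q were SPIDR at 0.28, CEBPD at 0.04, PRKDC at −0.83, MCM4 at −0.67 and UBE2V2 at −0.99. In consecutive blocks of 15 tested genes, a description chosen after the values were seen, all 9 full blocks of 8p had a median above 0, between 0.63 and 1.27, and all 17 full blocks of 8q had a median below 0, between −0.83 and −0.17.

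**Figure D4:**
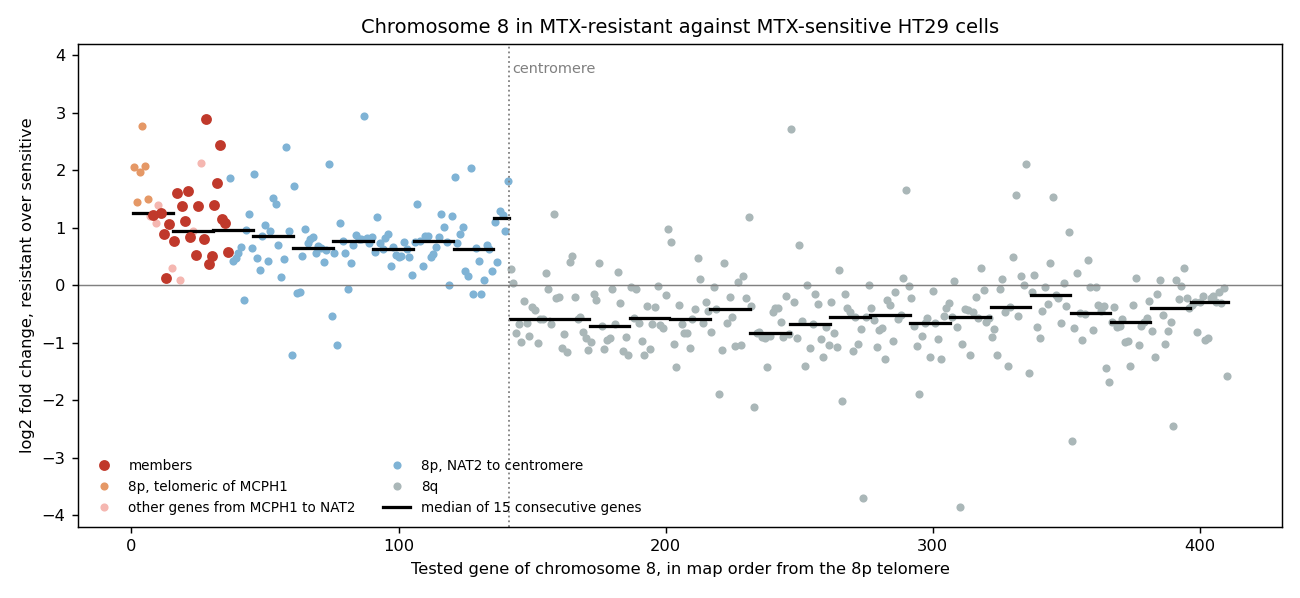
Log2 fold change, resistant over sensitive, of each tested gene of chromosome 8 in map order from the 8p telomere, with the 8p genes of the stretch as darker points, black lines at the median of blocks of 15 consecutive genes (6 and 14 in the last block of 8p and 8q) and a dotted line at the centromere. The block medians are 0.63 to 1.27 in the full blocks left of the centromere and −0.83 to −0.17 in those right of it.

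Many of the 8p proteins act with partners encoded on other chromosomes or on 8q, and 11 lists of such partners and relatives, 138 genes in all, were read from the same fit. Of 120 tested partners, 12 were higher (10%), 26 were lower (21.7%) and 82 did not pass, and their median log2 fold change was −0.08. Over all tested genes 11.9% were higher and 21.4% lower, so the share of partners in each direction lay near that of all genes. With quantile normalization 32 of the 120 partners were higher, a larger share than the 20.1% of all genes. Both the count of higher partners and its nearness to all genes therefore depend on the scaling of the arrays. Without sensitive replicate 2, 6 partners were higher and 17 were lower.

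Of 14 tested genes of the CCR4-NOT complex and its cofactors, the complex of CNOT7, 1 was higher and 3 were lower. BTG1, an antiproliferative cofactor that binds CNOT7, had scaled signals of 26.5, 26.6 and 24.9 in resistant samples, against 49.2, 44.7 and 41.8 in sensitive samples, a log2 fold change of −0.80 (limma, adjusted p = 0.000165). CNOT8, the paralogue of CNOT7, was at 0.15 and did not pass. Of 7 tested genes of ESCRT-I, the complex of VPS37A, 0 were higher and 2 were lower, namely TSG101 at −0.58 and VPS37C at −0.56 (limma, adjusted p = 0.00207 and 0.00224). VPS37B, a paralogue of VPS37A, was at −0.55 and did not pass. The shares of both complexes, and of each list below, rest on few genes, and nothing is read from them against the shares of all genes.

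Of 12 tested myotubularins, the family of MTMR9 and MTMR7, 0 were higher and 2 were lower. These were MTMR1 at −1.48 and MTM1 at −1.30 (limma, adjusted p = 1.05e-07 and 5.93e-05), which both lie on the X chromosome. MTMR6, an active phosphatase that MTMR9 binds, had 26.9, 21.9 and 24.1 in resistant samples, against 20.5, 24.0 and 28.5 in sensitive samples, and did not pass. Of 11 tested subunits of oligosaccharyltransferase, the complex of TUSC3, 2 were higher and 2 were lower. OST4 was higher at 0.62 and OSTC at 0.38 (limma, adjusted p = 0.000806 and 0.0301), and RPN2 was lower at −0.59 and RPN1 at −0.43 (limma, adjusted p = 0.000158 and 0.0158). The TUSC3 paralogue MAGT1 had 82.7, 75.5 and 73.0 in resistant samples, against 72.4, 72.4 and 73.8 in sensitive samples. MAGT1 was thus high on all arrays with overlap between the groups, while the main probe set of TUSC3 was under the array median on all 6.

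Of 16 tested lysosomal cathepsins and sphingolipid hydrolases, the relatives of CTSB and ASAH1, 1 was higher and 4 were lower. The widest difference was that of CTSS, cathepsin S of antigen-presenting cells, with 1.26, 2.19 and 0.367 in resistant samples, against 8.91, 8.29 and 7.34 in sensitive samples. Its log2 fold change was −3.02 (limma, adjusted p = 4.78e-06). CTSH, another cathepsin, was lower at −0.62 (limma, adjusted p = 0.000903). The 1 higher gene was GM2A, the activator of ganglioside breakdown, at 0.61 (limma, adjusted p = 0.0259), which was not past the threshold without resistant replicate 1 or 2 or sensitive replicate 2 or 3, with an adjusted p of up to 0.12. The cathepsins CTSD at 0.25 and CTSL at 0.26 did not pass. The list of 16 tested sterol synthesis enzymes was drawn up for FDFT1. It held 3 higher genes, among them HMGCS1, the synthase that precedes the main control step, at 1.00 and LSS, lanosterol synthase, at 0.76 (limma, adjusted p = 1.2e-05 and 0.00126), and 1 lower gene, NSDHL of the X chromosome, at −1.30 (limma, adjusted p = 1.35e-05).

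Of 8 tested telomere proteins and the tankyrase paralogue, 0 were higher and 2 were lower. The helicase PIF1 was at −1.10, and TERF1, which encodes TRF1, the partner of both TNKS and PINX1, was at −0.89 (limma, adjusted p = 0.00011 and 0.000307). TERF1 lies on 8q, and it had 10.7, 8.74 and 9.37 in resistant samples, against 19.6, 17.8 and 16.2 in sensitive samples. TNKS2 was at −0.37 and did not pass. Of 9 tested DNA glycosylases, MPG was higher at 0.68, whereas NEIL3, a relative of NEIL2, was lower at −0.999 and UNG at −0.56 (limma, adjusted p = 0.00843, 0.000235 and 0.00343).

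Of 5 tested relatives and microtubule partners of MTUS1, MAPRE3 was higher and 3 were lower. Over all tested genes 11.9% were higher and 21.4% lower, and nothing is read from so few genes against these shares. MAPRE3 encodes the end-binding protein EB3, and it had 3.17, 2.16 and 4.34 in resistant samples, against 0.408, 1.13 and 0.695 in sensitive samples, a log2 fold change of 2.18 (limma, adjusted p = 0.000372). Its sensitive mean was under the array median, so it entered the fit through its resistant arrays. MAPRE1, the gene for EB1, was lower at −0.79 (limma, adjusted p = 7.4e-06), with 101, 89.9 and 101 in resistant samples, against 179, 159 and 170 in sensitive samples. MTUS2, the paralogue of MTUS1, was at −0.08 and did not pass. Of 12 tested centriolar satellite proteins, the partners of PCM1, 2 were higher and 2 were lower.

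Some partner calls near the threshold ended when a single array was left out. CNOT4 at −0.63, a ubiquitin ligase of CCR4-NOT, and CNOT1 at −0.33, its scaffold, were no longer past it without sensitive replicate 1, resistant replicate 2 or sensitive replicate 2, with adjusted p of up to 0.0996 and 0.169. CNOT1 also lost its call without resistant replicate 3 or sensitive replicate 3. RPN1 at −0.43, MAPRE2 at −0.60 and SPAG5 at −0.48 lost theirs without sensitive replicate 1, resistant replicate 2 or sensitive replicate 2, with adjusted p of up to 0.0877, 0.089 and 0.0927.

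**Figure D5:**
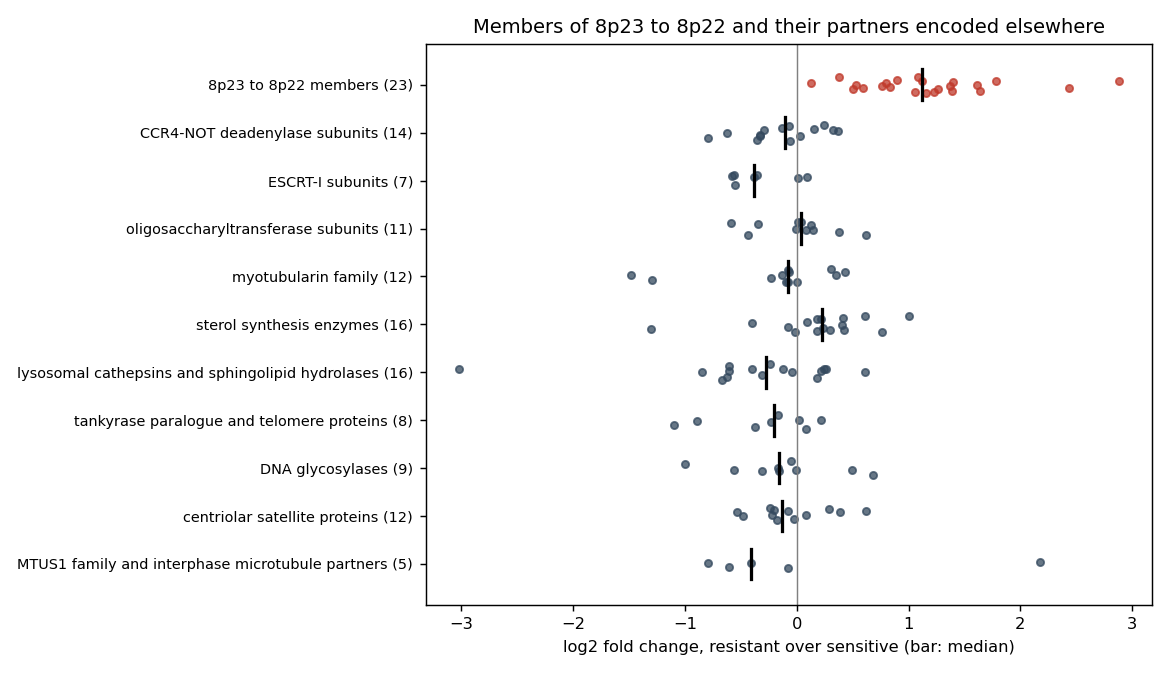
Log2 fold change, resistant over sensitive, of the 23 tested 8p genes (top row) and of the tested genes of 10 of the 11 lists of their partners and relatives encoded elsewhere, with 1 point a gene, a black bar at the median of each row and the number of genes in brackets. The top row has a median of 1.12, and the medians of these 10 lists run from −0.41 to 0.23.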

How the data were processed

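The authors hybridized total RNA to HG U133 PLUS 2.0 arrays and deposited MAS5 values, which give every probe set an intensity on a linear scale. The MAS5 version, detection calls, scan dates and batches are not given in the sources used here, so batches were not tested. The number of arrays limits the precision.

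Of 54675 probe sets, 62 controls were left out of the fit. In the platform annotation 41091 probe sets name 1 gene, 1801 name several and 11721 name none. Symbols and gene order were taken from RefSeq on GRCh38.p14, where 41037 probe sets matched by Entrez identifier. No build is named for the signals, so no coordinates or sequences are given. Signals were scaled to the array median and set to at least 0.01, and log2 values of the 26833 probe sets whose scaled mean reached 1 were fitted in limma 3.58.1 (R 4.3.3; lmFit, eBayes with trend, Benjamini-Hochberg over all probe sets). A gene passed at an adjusted p under 0.05 and was read from its probe set of highest mean signal. Figures were drawn with matplotlib 3.10.9.

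The 8p genes, the lists and the rule for named genes were chosen with earlier results of these data known. The rule named every 8p gene and its probe sets, the 3 nearest tested genes outside each end, called genes between the ends, up to 3 called genes of each partner list with the widest change, and direct paralogues. The named genes of each list are a selection by that rule, and the genes at the centromere, DPYSL2 and the unpassed genes between the ends were named after their values were seen. The genes of 1 of the 11 partner lists enter the pooled counts and are not reported singly here. Alternatives changed the scaling, low signals, filter, test, probe set, fold threshold, replicate block and each array in turn. The counts over chromosome 8 genes at or above the array median in both groups were added after the data were seen, and OSTC, CTSD and CTSL were named after their values were seen.

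On simulated data (26833 probe sets, resistant against sensitive), the fit recovered 4% of 50 probe sets changed 1.5-fold, 46% of those changed 2-fold, 72% at 3-fold and 92% at 8-fold, and called 6 unchanged ones. No more than 50 probe sets were changed at each fold, whereas 9.52% were called higher and 19.5% lower in the data. The adjusted threshold was therefore stricter in the simulation, and these shares do not give the recovery in the data.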

Additional observations from a re-analysis of the deposited data

How the results depend on the processing

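Under the alternatives, run for the genes that the rule names, no called gene changed direction. Of the uncalled ones, MTUS2 (−0.08) ran from −0.22 to 0.45 and MTMR6 (0.01) from −0.11 to 0.19. Where a call was lost the cause was not tested. The 19 higher 8p genes became 10 by the methods' t-test with Benjamini-Hochberg adjustment and 1 (ZDHHC2) by the same test with unequal variances, with 13 at an unadjusted p under 0.05, and 5 with a 3-fold threshold. They ranged from 16 to 20 with 1 array left out, with 0 lower throughout. Without the filter 14 were higher and 1, MSR1, was lower. The median of 1.12 became 0.84 with log2(scaled signal + 1) and 0.93 to 1.21 with 1 array left out. Apart from the 2 two-group tests and the fold threshold, the alternatives ended 5 of the 19 calls, those of CLDN23, XKR6, LONRF1, CNOT7 and NAT1.

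The 2 higher genes among the others from MCPH1 to NAT2 became 1 by the t-test, 0 with unequal variances (2 unadjusted) and 1 at 3-fold, and were 2 with each array left out. The 6 telomeric ones became 5 by the t-test, 1 with unequal variances and 4 at 3-fold, and were 6 with each array left out. For 8p from NAT2 to the centromere, 71 became 30, 3 and 8 under the t-test, unequal variances and the 3-fold threshold, and 51 to 67 with 1 array left out. The 1 lower gene became 0 under quantile normalization, division by the median of tested probe sets, no filter, both two-group tests, limma without trend and the 3-fold threshold, and 0 to 2 with 1 array left out. For 8q, the 11 higher genes became 3, 1, 6 and 3 under the t-test, unequal variances, limma without trend and the 3-fold threshold, and 7 to 10 with 1 array left out, the 7 without resistant replicate 1. The 152 lower ones became 77, 4 and 9 under the t-test, unequal variances and the 3-fold threshold, and 128 to 159 with 1 array left out.

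The 12 higher partners became 32 under quantile normalization, 27 with division by the median of tested probe sets, 2 by the t-test, 0 with unequal variances (7 unadjusted), 5 without trend and 1 at 3-fold, and 6 to 12 with 1 array left out. The 26 lower partners became 10, 0 (24 unadjusted), 14 and 1 under the t-test, unequal variances, no trend and the 3-fold threshold, and 17 to 36 with 1 array left out. Both lowest counts came without sensitive replicate 2. The median of all tested genes was −0.10, against 0.02 under quantile normalization and 0.00 with division by the median of tested probe sets.

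Same-numbered arrays shared deviations with correlations of 0.141, 0.00718 and 0.0791. Resistant replicates 1 and 3 matched their own number best, and resistant replicate 2 matched another number best. So few arrays cannot decide whether same-numbered samples shared more than a number. With the replicate block 20 8p genes were higher with a median of 1.12. The block gave 161 lower 8q genes, and 16 higher and 32 lower partners. Signals far under the array median have no firm level, which limits the 12 dim genes and the folds of FGL1, XKR6 and SOX7.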
